A study of Homo sapiens with 12 samples.

Results

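A stretch of 610 kb in band q22 of chromosome 7 holds the genes described here, most of which encode C2H2 zinc finger proteins. The 10 genes were chosen by name from the 26485 genes listed: TRIM4, ZNF655, ZKSCAN5, ZNF789, ZNF394, ZKSCAN1, ZSCAN21, ZNF3, FAM200A and CYP3A5. TRIM4 and ZNF655 were chosen because they have no reads in Control and DTP and have reads later, and the other members because they lie near them. Values of TRIM4 and ZNF655 across that divide are therefore a description, and for every member the differences of DTEP or LR from DTP or Control are given as a description, with no test.

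RNA was sequenced from BT474, an established luminal HER2-positive breast cancer cell line, kept in lapatinib, a kinase inhibitor of HER2 and EGFR, at 1 µM. The 4 groups were Control at day 0, DTP, the drug-tolerant persisters of day 9, DTEP, the expanded persisters grown out by month 6, and LR, the long-term resistant cells of month 9 (titled Resistant), with 3 libraries each. The treatment label gives lapatinib also for Control, which was read here as untreated from its title. DTEP and LR arose from cells that lived through months of selection, the study calls its cell populations clones, and a change within cells and a change of which cells were present cannot be told apart in bulk RNA. In the same way, fewer cells with a transcript and less of it per cell cannot be told apart.

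Depth was 16383363 to 25030482 gene-assigned reads per library, so that a gene with no read has a limit of 3 reads, or 0.124 to 0.173 normalised read counts, for counting error only. DTEP replicate 3 stood apart: across genes, which are not independent replicates, the Pearson r of its log2 values was 0.934 to 0.962 with DTEP replicates 1 and 2 but 0.971 to 0.986 with LR. The 11 luminal epithelial markers had a mean of at least 1 in Control, DTP and DTEP, and 10 of them, all but ESR1, in LR. Their summed level, of which ERBB2 (the HER2 gene) was the largest part in Control, lay between 12855 and 13385 in Control, between 15568 and 17837 in DTP, between 5300 and 7142 in DTEP and between 4820 and 6354 in LR, so it moved with the groups. Its members did not move as one: from Control to DTEP the mean of ERBB2 went from 6526 to 1627, and that of GATA3 from 190.3 to 1160. EPCAM and FOXA1 also rose, from 205 to 330 and from 394 to 731. ESR1, PGR and CDH1 were at 150.5, 1179 and 1125 in Control and fell to 8.14, 73.0 and 109 in DTEP. In LR these 3 were at 0.153, 2.45 and 75.1. Of 4 fibroblast, 3 blood and 2 endothelial markers, 1 of each list reached a mean of 1 in Control and DTP, and no endothelial marker did in DTEP or LR. Their summed levels ranged from 48.1 to 130 for fibroblast, 0.872 to 3.54 for blood and 0.0845 to 8.57 for endothelium. COL1A1, CD68 and VWF made up most of these sums, CD3E was at 0 throughout, and COL3A1, PDGFRB, DCN, PTPRC and PECAM1 had group means of at most 0.118. The part of any of these lists in the results was not tested.

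C2H2 zinc finger proteins bind DNA through tandem fingers, and their genes occur in tandem arrays that grew by local duplication. Many carry a KRAB domain, which recruits corepressors that silence chromatin, or a SCAN domain, through which they pair with one another. TRIM proteins are RING-type ubiquitin ligases, and TRIM4 is one of those linked to antiviral signalling. FAM200A is a protein-coding gene derived from a DNA transposase, and CYP3A5 is a cytochrome P450 that oxidises many drugs, chiefly in liver and intestine.

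On the GRCh38.p14 annotation of RefSeq the members run along chromosome 7 in the order ZNF789 (99472890 to 99487605, plus strand), ZNF394 (99486519 to 99500281, minus), ZKSCAN5 (99504662 to 99534700, plus), FAM200A (99546300 to 99558543, minus), ZNF655 (99558642 to 99576453, plus), CYP3A5 (99648194 to 99679996, minus), TRIM4 (99890403 to 99919530, minus), ZKSCAN1 (100015596 to 100045374, plus), ZSCAN21 (100049774 to 100065040, plus) and ZNF3 (100063837 to 100082577, minus). ZNF655 and FAM200A are transcribed away from each other, with 98 bases between their spans. ZNF789 and ZNF394 share 1087 bases on opposite strands, ZSCAN21 and ZNF3 share 1204, and CYP3A5 lies within the span of ZSCAN25. The authors' default counting ignores strand and drops reads that fall in several genes, so the levels of these overlapping genes are uncertain.

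The stretch before ZNF655 is shown because it lies directly before ZNF655, which had no read in 6 libraries, and reaches into the span of FAM200A, which was read in all 12. It covers chr7:99558392-99558641 (GRCh38.p14, plus strand, from RefSeq), and capitals mark its 18 CpG dinucleotides, the sites of DNA methylation in promoters.
ZNF655 upstream: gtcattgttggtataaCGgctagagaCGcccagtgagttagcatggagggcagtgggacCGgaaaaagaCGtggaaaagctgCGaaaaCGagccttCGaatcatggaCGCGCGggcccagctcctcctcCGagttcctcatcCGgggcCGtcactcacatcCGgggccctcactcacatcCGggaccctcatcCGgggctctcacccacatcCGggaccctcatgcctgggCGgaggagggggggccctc

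Of the members 8 have a RefSeq promoter, taken as 250 bases before to 50 after the start, and TRIM4 and ZNF394 are the others. CpG counts in these 300 bases were 26 in ZNF789, 23 in ZKSCAN5, 15 in FAM200A, 25 in ZNF655, 2 in CYP3A5, 21 in ZKSCAN1, 24 in ZSCAN21 and 26 in ZNF3, beside a median of 13 over 27305 genes. ZNF655, at 0 in 6 libraries, thus has about as many CpGs as the zinc finger genes read throughout. No methylation was measured.

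Short stretches of 4 promoters are shown because these genes of the array share a run of letters. Capitals mark TCCTAGAG, the motif searched on both strands, which was chosen after the sequences were read. All stretches are 60 bases of GRCh38.p14 from RefSeq, 5′ to 3′ in the direction of the gene: ZKSCAN1 chr7:100015509-100015568 (plus strand), FAM200A chr7:99552140-99552199 (minus), ZSCAN25 chr7:99616871-99616930 (plus) and ZNF789 chr7:99472817-99472876 (plus). ZSCAN25 is a SCAN zinc finger neighbour and no member, and the start that the promoter table uses for FAM200A lies inside the span given above.
ZKSCAN1: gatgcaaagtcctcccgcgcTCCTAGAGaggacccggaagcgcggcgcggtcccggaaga
FAM200A: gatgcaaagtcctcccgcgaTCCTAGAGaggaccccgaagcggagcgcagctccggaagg
ZSCAN25: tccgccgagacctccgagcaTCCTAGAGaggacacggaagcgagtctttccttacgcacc
ZNF789: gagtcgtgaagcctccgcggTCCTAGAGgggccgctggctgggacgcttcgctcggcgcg

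TCCTAGAG occurred in 3 of the 8 member promoters and in 1 of 54 neighbour promoters, beside 1.41% of 27305 genes and 6.14% of 554 C2H2 zinc finger genes. Aligned on the motif and compared base by base, the stretches of ZKSCAN1 and FAM200A were identical at 52 of 60 positions, and the other pairs at 25 to 35. CCGGAAG, the core that ETS factors bind, occurred in 5 of 8 members, 10 of 54 neighbours, 12.2% of all genes and 40.1% of C2H2 zinc finger genes. These matches describe letters only. The genes that share TCCTAGAG did not share a course: FAM200A, ZSCAN25 and ZNF789 were lower in DTEP and LR, and ZKSCAN1 was highest in LR, as given below.

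TRIM4 had 0 reads in each of the 6 Control and DTP libraries, of 115945470 assigned reads. Its level was 57.8, 57.4 and 78.3 normalised read counts in DTEP replicates 1 to 3 and 86.6, 102 and 82.6 in LR, from 3998 reads in DTEP and 5599 in LR. Every DTEP library thus lay far above every earlier library, and every LR library lay above every DTEP library. Against the limit of 3 reads in the shallowest library of the group, the DTEP mean of 64.5 ± 11.9 (SD, n = 3) was at least 396-fold higher than Control and at least 373-fold higher than DTP. For the LR mean of 90.4 ± 10.2 the bounds were 554-fold over Control and 523-fold over DTP.

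ZNF655, a KRAB-type zinc finger gene also known for a role in cell cycle control, had 0 reads in the same 6 libraries. In DTEP it was at 29.9, 41.1 and 80.5 normalised read counts, and in LR at 87.8, 68.7 and 68.7. The groups DTEP and LR overlapped, since DTEP replicate 3 exceeded LR replicates 2 and 3. The DTEP mean of 50.5 ± 26.6 (SD, n = 3) was at least 310-fold higher than Control and 292-fold higher than DTP, and the LR mean of 75.1 ± 11.0 at least 460-fold and 434-fold higher. With DTEP replicate 3 left aside, the other DTEP libraries still lay far above the limit of 3 reads.

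**Figure D1:**
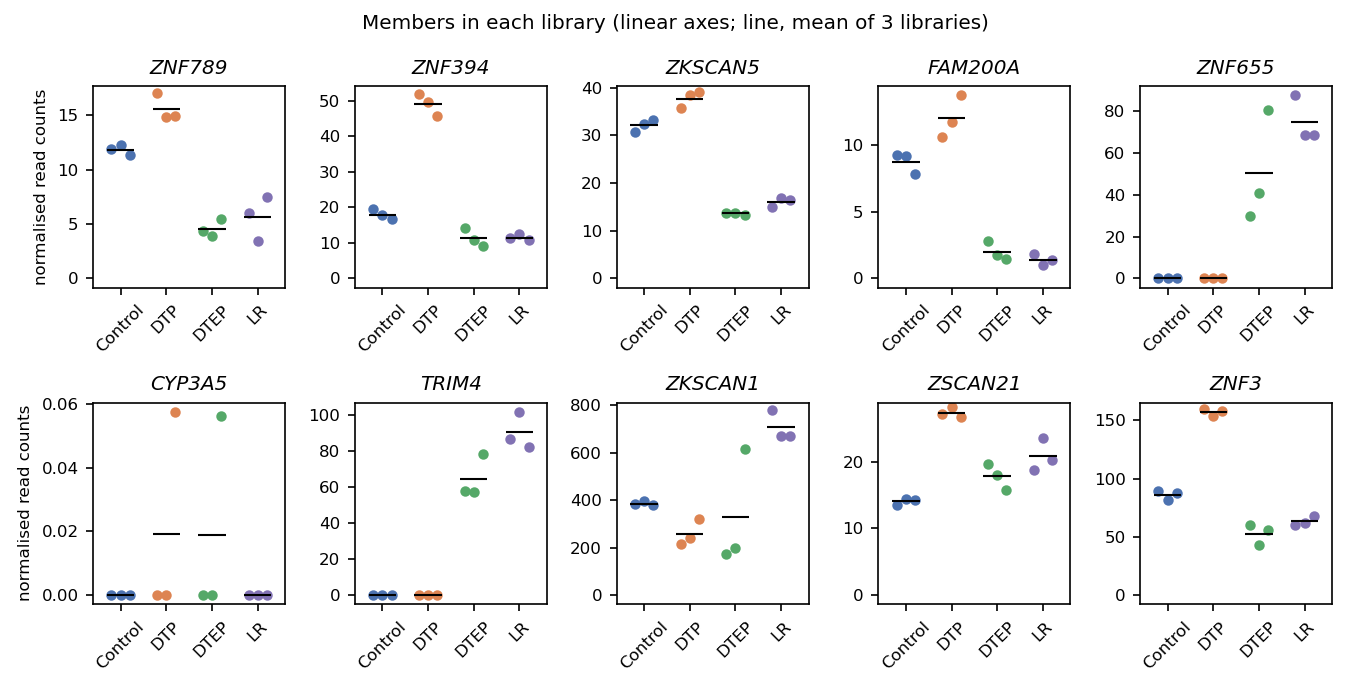
Normalised read counts (linear vertical axes, a scale of its own for each gene) of the 10 members in the 3 libraries of Control, DTP, DTEP and LR, with points for libraries and lines for group means. TRIM4 and ZNF655 are at 0 in all 6 Control and DTP libraries, ZKSCAN1 in DTEP replicate 3 lies with LR, and CYP3A5 has single reads only.

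The genes that flank ZNF655 were lower where it was present. FAM200A, which starts beside ZNF655, was at 9.29, 9.19 and 7.87 normalised read counts in Control, 10.6, 11.7 and 13.8 in DTP, 2.82, 1.77 and 1.46 in DTEP and 1.86, 0.996 and 1.41 in LR. It was lower in every DTEP and LR library than in every earlier one, and its group mean was 5.98-fold lower in DTEP and 8.50-fold lower in LR than in DTP. These are low counts, 128 reads in DTEP and 91 in LR over 3 libraries each. ZSCAN25, the next gene on the other side, 40492 bases away, fell from 31.6 ± 3.20 in DTP to 10.7 ± 0.639 in DTEP (SD, n = 3), and limma gave -1.48 on the log2 scale with an SE of 0.14 and an adjusted p of 2.42e-06.

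Beside TRIM4, GJC3, a gap junction connexin, lies 3735 bases away and the olfactory receptor OR2AE1 13369 bases away. GJC3 was at 0.0920, 0 and 0.0932 in Control, 0 in all 3 DTP libraries, 3.40, 2.60 and 4.66 in DTEP and 4.10, 2.82 and 3.10 in LR. It rose from DTP to DTEP by 2.16 in log2(value + 1) (SE 0.17, limma adjusted p 4.48e-07), a change held down by the added 1. Its 4 reads in Control kept it out of the pattern of TRIM4. OR2AE1 had 0 reads in Control and DTP, 1 in DTEP and 2 in LR.

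AZGP1, which encodes a secreted zinc-binding glycoprotein known as an androgen-regulated product of secretory epithelia, lies next along the chromosome between GJC3 and ZKSCAN1, and was picked out after its values were seen. Its level was 0.690, 0.924 and 0.792 in Control, 0.261, 0.148 and 0.115 in DTP, 440, 296 and 342 in DTEP and 499, 453 and 443 in LR. DTEP and LR did not overlap with the earlier groups. AZGP1 fell from Control to DTP by 0.62 in log2(value + 1) (SE 0.16, limma adjusted p 0.0076). Its mean fell 4.59-fold, a change that the added 1 makes look smaller at values below 1. From DTP to DTEP it rose by 8.24 in log2(value + 1) (SE 0.16, limma adjusted p 1.97e-11), and its mean 2057-fold. From TRIM4 up to ZKSCAN1, the listed genes TRIM4, GJC3, AZGP1 and the pseudogene AZGP1P1 thus had 0 to 49 reads in Control and 217 to 22482 in DTEP.

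**Figure D2:**
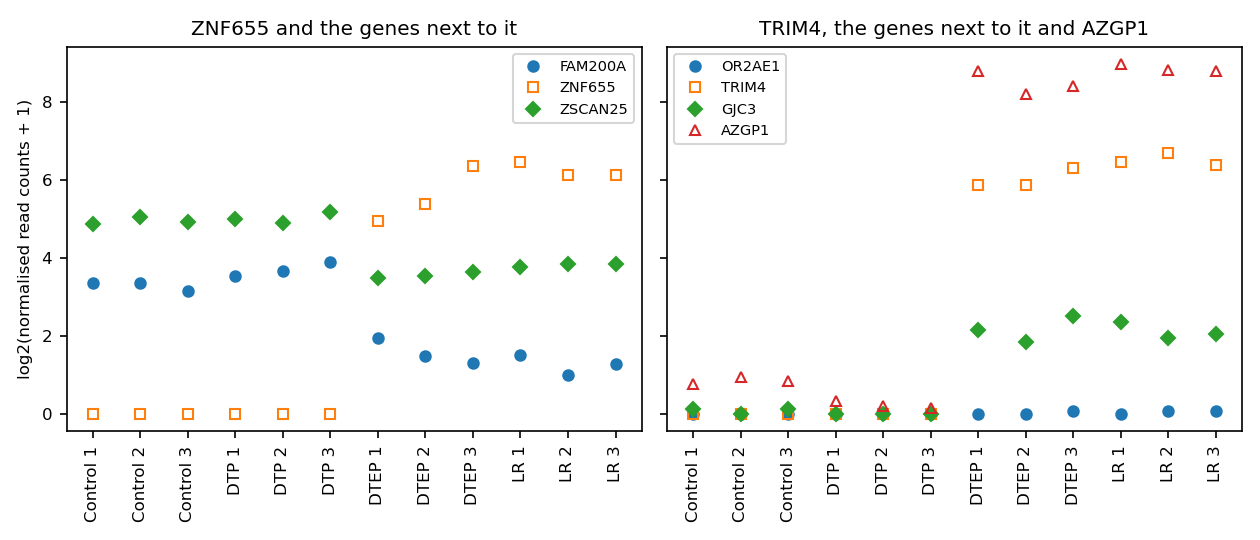
log2(normalised read counts + 1) per library for ZNF655 with its flanking genes FAM200A and ZSCAN25 (left) and for TRIM4 with OR2AE1, GJC3 and AZGP1 (right). FAM200A and ZSCAN25 are lower, and ZNF655, TRIM4, GJC3 and AZGP1 higher, in every DTEP and LR library than in every Control and DTP library.

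The zinc finger members before ZNF655, and ZNF3 at the far end, were lower at month 6. ZKSCAN5, a KRAB and SCAN zinc finger gene, was at 30.8, 32.4 and 33.1 in Control, 35.6, 38.4 and 39.0 in DTP, 13.8, 13.7 and 13.4 in DTEP and 15.0, 16.8 and 16.4 in LR. Each DTEP and LR library lay below each Control and DTP library, and the DTEP mean was 2.77-fold below the DTP mean and 2.36-fold below the Control mean. ZNF789, a KRAB zinc finger gene, was at 11.9, 12.2 and 11.3 in Control, 17.0, 14.9 and 14.9 in DTP, 4.35, 3.91 and 5.44 in DTEP and 6.00, 3.43 and 7.46 in LR, again without overlap between early and late libraries.

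ZNF394, a KRAB and SCAN zinc finger gene reported to repress AP-1 activity, was at 19.5, 17.7 and 16.6 in Control, 52.0, 49.6 and 45.7 in DTP, 14.1, 10.7 and 9.09 in DTEP and 11.3, 12.4 and 10.7 in LR. ZNF3, another KRAB zinc finger gene, was at 89.3, 81.8 and 87.7 in Control, 160, 154 and 158 in DTP, 59.9, 42.9 and 55.3 in DTEP and 60.2, 62.0 and 67.7 in LR. Both were highest in DTP and lower in DTEP and LR than in Control, with no overlap, so their order was DTP, Control, then LR and DTEP, which overlapped for ZNF394 and did not for ZNF3.

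ZSCAN21 and ZKSCAN1 followed courses of their own. ZSCAN21, a SCAN zinc finger activator known from the testis and brain, was at 13.5, 14.4 and 14.3 in Control, 27.2, 28.2 and 26.7 in DTP, 19.8, 18.0 and 15.8 in DTEP and 18.8, 23.6 and 20.3 in LR. Its DTEP and LR libraries overlapped and lay between DTP and Control, above every Control library. ZKSCAN1, host of a well known circular RNA that these gene counts do not separate, was at 382, 396 and 379 in Control, 213, 242 and 321 in DTP, 173, 197 and 615 in DTEP and 782, 671 and 669 in LR. LR was above all other groups, and DTEP was split, with replicate 3 above Control and replicates 1 and 2 below DTP.

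CYP3A5 had 1 read in DTP replicate 3 and 1 in DTEP replicate 3 and none in the other 10 libraries, so its level was not distinguishable from 0 at this depth. Of its family, CYP3A43 passed the filter, with 0.0697 ± 0.0841, 0.712 ± 0.139, 1.17 ± 0.758 and 1.91 ± 0.401 in Control, DTP, DTEP and LR (SD, n = 3).

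Counted over the 9 members that passed the filter, 6 were lower in DTEP than in DTP with no overlap and 2 higher, beside 32.8% and 34.5% of 13794 genes, and ZKSCAN1 overlapped. Against Control, 5 were lower in both DTEP and LR without overlap, beside 32.5% and 39.4% of all genes. These contrasts chose 2 of the members, and nothing is read from the counts. How many members fell can be set beside the whole chromosome, whose genes were lower in DTEP and LR too, as given below.

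From Control to DTP, a contrast that did not choose the 8 members other than TRIM4 and ZNF655, the 7 that passed the filter gave 3 that rose and none that fell. Over all genes, 25.2% rose and 28.8% fell at an adjusted p below 0.05, the threshold used throughout. ZNF394 rose from 18.0 ± 1.45 to 49.1 ± 3.18 (SD, n = 3), and limma gave 1.40 on the log2 scale with an SE of 0.17 and an adjusted p of 4.79e-05. ZSCAN21 rose from 14.1 ± 0.494 to 27.4 ± 0.775, by 0.91 on the log2 scale (SE 0.15, limma adjusted p 0.000341). ZNF3 rose from 86.3 ± 3.95 to 157 ± 2.87, by 0.86 on the log2 scale (SE 0.13, limma adjusted p 0.00023).

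These 3 rises held in all 23 alternative settings, and the DTP libraries of each lay above its Control libraries, as for 37.7% of all genes. The DTP libraries of ZKSCAN5, ZNF789 and FAM200A also lay above their Control libraries, and those of ZKSCAN1 lay below. ZSCAN21 and ZNF3 overlap in sequence, and so do ZNF394 and ZNF789, so these levels carry the uncertainty of counting given above. For ZKSCAN5, ZNF789 and FAM200A the log2 changes were 0.23, 0.37 and 0.41 (SE 0.13, 0.23 and 0.20, limma adjusted p 0.161, 0.183 and 0.107), and for ZKSCAN1 -0.60 (SE 0.37, limma adjusted p 0.189). With all libraries no member fell at an unadjusted p below 0.05 either, in limma, edgeR or DESeq2, and DESeq2 gave 4 higher, with ZKSCAN5 added. Without DTEP replicate 3, ZKSCAN1 passed as lower (limma adjusted p 0.00354). With only the 6 Control and DTP libraries in the fit, 7 passed, 6 higher and ZKSCAN1 lower. None passed the study's stricter call of an absolute log2 change above 2, beside 4.92% of all genes.

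From DTEP to LR, 1 of 9 members passed, beside 3.04% of genes higher and 4.31% lower. ZKSCAN1 rose from 328 ± 248 to 707 ± 64.5 (SD, n = 3), which limma put at 1.35 on the log2 scale with an SE of 0.37 and an adjusted p of 0.0472. This call was lost in 15 of 23 alternatives (adjusted p of limma, edgeR and DESeq2 2.0e-05 to 0.301), while the change was 1.02 to 1.93. As given above, DTEP replicate 3 lay near LR and replicates 1 and 2 far below it.

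TRIM4 and ZNF655 had log2 changes of 0.49 (SE 0.17, limma adjusted p 0.0788) and 0.68 (SE 0.28, limma adjusted p 0.117) and did not pass. Without DTEP replicate 3 they and ZKSCAN1 passed, with 0.63 for TRIM4 (limma adjusted p 0.00483), 1.07 for ZNF655 (limma adjusted p 0.00071) and 1.93 for ZKSCAN1. The remaining 6 changes were -0.31 for FAM200A to 0.27 for ZNF3. The members' median was 0.22, against -0.07 over all genes and also 0.22 over 517 C2H2 zinc finger genes that are no members.

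**Figure D3:**
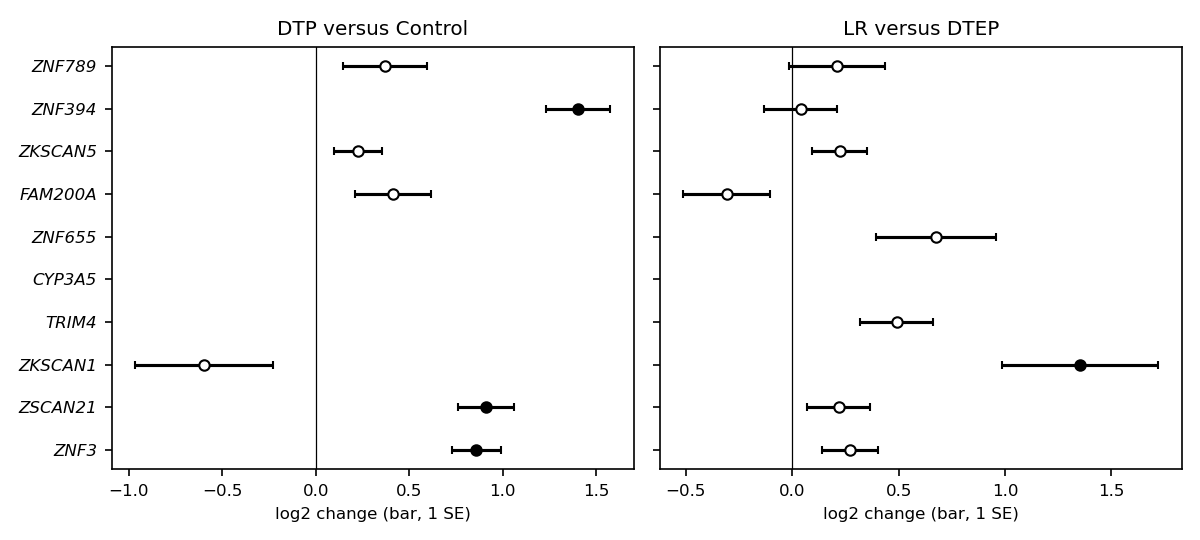
Log2 change (horizontal axis, bars 1 SE, limma) of the members tested from Control to DTP (left, 7 genes) and from DTEP to LR (right, 9 genes), with filled points for an adjusted p below 0.05. ZNF394, ZSCAN21 and ZNF3 pass on the left, and ZKSCAN1 passes on the right.

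The neighbourhood, 1 Mb to either side of the members, holds 81 other listed genes, of which 53 passed the filter. From DTP to DTEP 8 of them rose and 35 fell, beside 35.7% and 32.6% of all genes, with a median log2 change of -0.66 against 0.08. From Control to DTP 17 rose and 4 fell, or 32.1% and 7.55%, beside 25.2% and 28.8% of all genes. From DTEP to LR none rose, 4 were higher at an unadjusted p below 0.05 and 3 fell (limma), while edgeR gave 0 higher and 4 lower, and DESeq2 1 and 10. Those few calls turned on single libraries: without DTEP replicate 3 limma gave 5 higher and 19 lower, without any other library 0 higher and 0 to 5 lower, and with a replicate block 0 and 0.

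The fall was not limited to the neighbourhood. Over the 658 genes tested on chromosome 7, the median log2 change from DTP to DTEP was -0.66, with 58.8% falling and 14.7% rising. Against Control the chromosome's median was -0.59 in DTEP and -0.65 in LR, the lowest of 23 chromosomes in each case, and 0.04 in DTP. Over the alternative settings the DTP to DTEP median was -0.88 to -0.26. From DTP to DTEP the neighbours' median thus equals that of their chromosome, whose genes include the neighbours and members tested. TRIM4, ZNF655 and the 8 neighbours that rose, GJC3 and AZGP1 among them, stood against it. Against Control the neighbours' median was -0.31 in DTEP and -0.49 in LR, a smaller fall than that of the chromosome. DNA copy number was not measured, and its part was not tested.

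**Figure D4:**
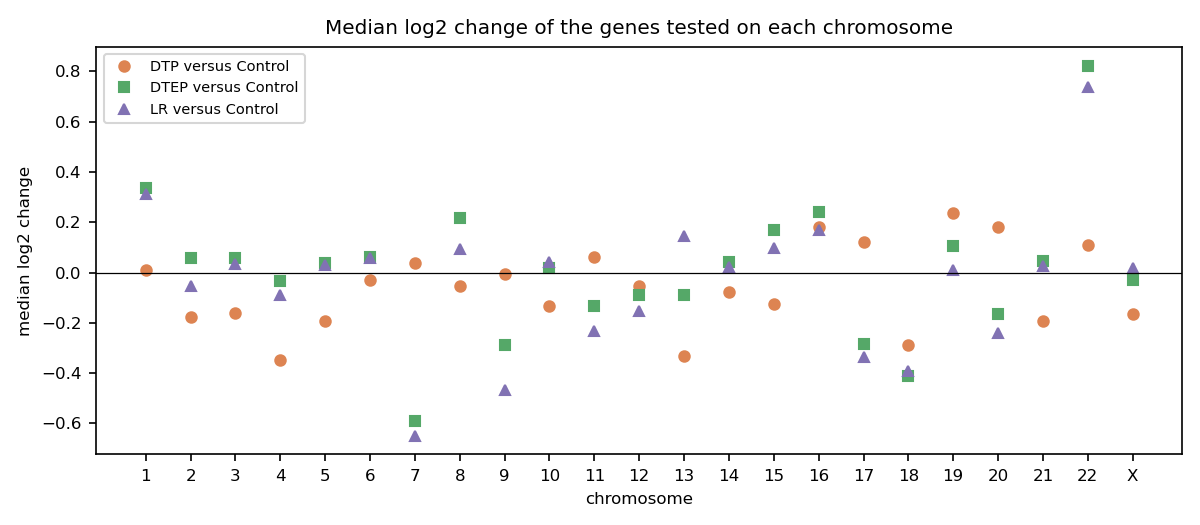
Median log2 change (vertical axis) of the genes tested on each chromosome (horizontal axis) in DTP, DTEP and LR, each against Control, from the limma fit. Chromosome 7 has the lowest medians in DTEP and LR, -0.59 and -0.65, and 0.04 in DTP.

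The neighbours' median joins unlike sides. Before TRIM4, where ZNF655 lies, 11 of 12 neighbours fell from DTP to DTEP in limma and DESeq2 and 10 in edgeR, and none rose with all libraries in these fits, with a median of -1.01. With 1 library left out, 8 to 11 fell, and without DTEP replicate 1 also 1 rose. After TRIM4, 24 of 41 fell and 8 rose, with a median of -0.57. Against Control the medians in DTEP were -1.13 before and -0.16 after TRIM4, with 11 of 12 and 10 of 41 lower, beside 28.7% of all genes. Of 17 bins of 1 Mb on chromosome 7 with at least 10 genes tested, counted from the start of TRIM4 and with the members included, the bin before it had the lowest median in DTEP against DTP (-1.20) and against Control (-1.13). The bin after it ranked 13 and 17 from the lowest. Both bins hold members, among them ZNF655 and TRIM4, which these contrasts chose. Against DTP the next lowest bin was at -1.1, so the rank of the bin before TRIM4 may rest on its members. Nothing is read from these ranks. The split at TRIM4 was chosen after the values were seen, and the difference between the sides was not tested.

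**Figure D5:**
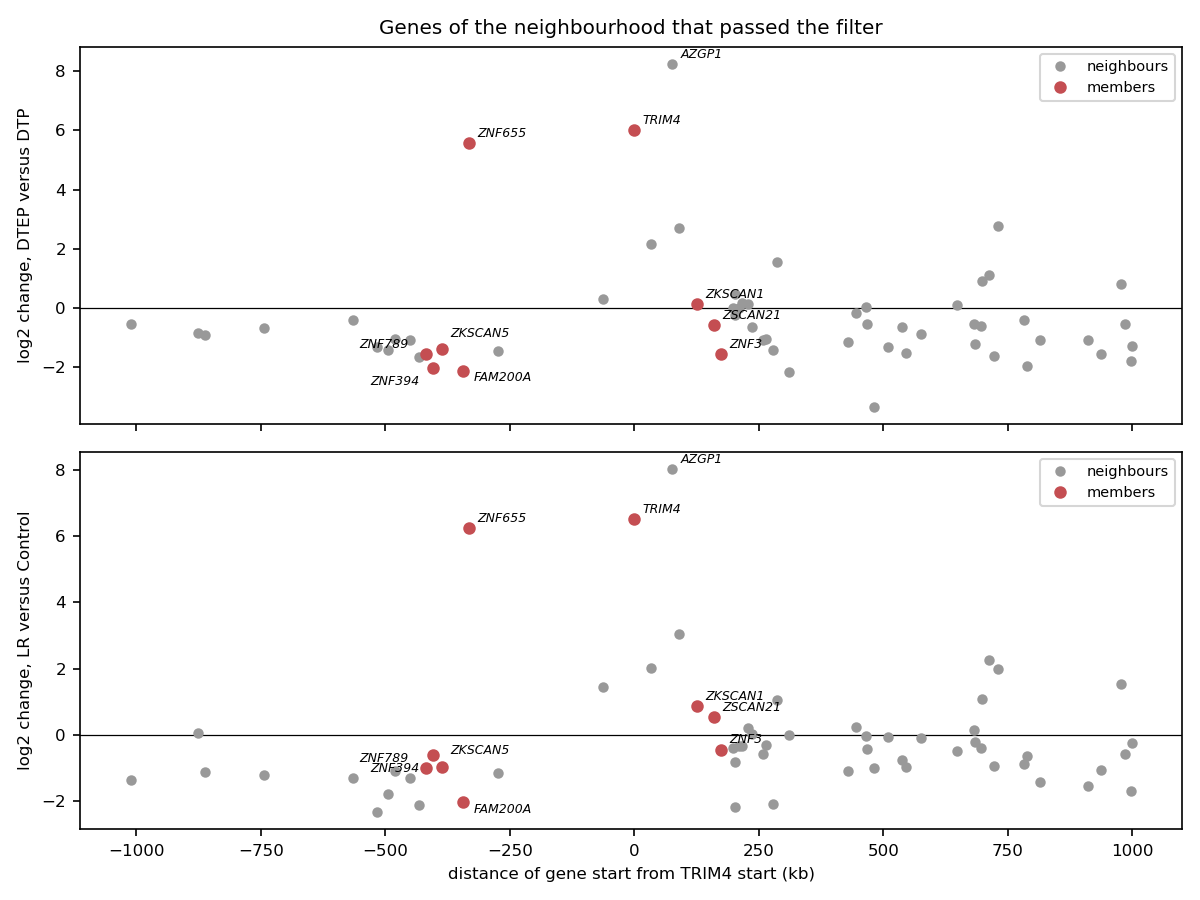
Log2 change (vertical axes, limma on log2(value + 1)) from DTP to DTEP (top) and from Control to LR (bottom) against distance of the gene start from that of TRIM4 in kb, for members (red) and neighbours (grey) that passed the filter. TRIM4, ZNF655 and AZGP1 stand above all other genes drawn, and their fitted changes depend on the added 1. The members' points are a description.

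Genome-wide, 58 of 20381 genes with a read, or 0.285%, had the pattern of TRIM4 and ZNF655, with 3 reads or fewer over the 6 Control and DTP libraries and a value of at least 1 in all 6 DTEP and LR libraries. Of these 4 lie on chromosome 7: TRIM4, ZNF655, the lipid transfer gene OSBPL3 and the succinate dehydrogenase assembly gene SDHAF3. In the neighbourhood TRIM4 and ZNF655 were the only ones, and by DTEP mean they ranked 5 and 6 of the 58. Above them were SLFN13 with 258 ± 119, the peroxisomal membrane gene PXMP4 with 229 ± 17.9 and the calcium channel gene TMCO1 with 182 ± 27.7 (SD, n = 3). The reverse pattern, reads in Control and DTP and 3 or fewer in DTEP and LR, was met by 12 genes, or 0.0589%, and by none in the neighbourhood.

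The genes most like TRIM4 over the 12 libraries, by Pearson r of log2 values, were TFAP2B, ALOX12P2, STXBP2, FAM221A and DDX26B, with r of 0.999 to 1.00. TFAP2B, an AP-2 transcription factor, went from 0.131 in Control and 0 in DTP to 719 in DTEP and 1162 in LR. Those most like ZNF655 were GS1-259H13.2, DDX26B, ERN2, C16orf62 and ZNF501, with r of 0.998 to 0.999, and TRIM4 and ZNF655 had an r of 0.997 with each other. The 12 points fall into an early and a late cluster of 6 libraries, which share this divide for every such gene, so these values say little beyond it.

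Members of the same families elsewhere were counted in the same contrast, in which 35.7% of all genes rose and 32.6% fell. Of 517 C2H2 zinc finger genes tested without the members, 137 (26.5%) rose and 184 (35.6%) fell from DTP to DTEP, with a median log2 change of -0.10 against 0.08 over all genes. Of 40 TRIM genes tested without TRIM4, 12 (30%) rose and 20 (50%) fell, with a median of -0.49, and none rose above a log2 change of 2. FAM200B, the relative of FAM200A, had a log2 change of -0.29 and did not pass.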

How the data were processed

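The authors sequenced stranded mRNA libraries (12, described as from parallel plates), aligned reads to hg38 with Rsubread and counted them over RefSeq genes with default settings. They deposited 1 normalised signal per gene and library, called normalised read counts here. All 199680 values above 0 were whole reads (tolerance 1e-06) once divided by 1 factor per library, so reads were recovered, and the deposited signal is CPM with edgeR TMM factors. Depth was 16383363 to 25030482 reads. The study calls libraries of a condition technical replicates, so p-values may measure technical spread only.

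Tests used limma (3.58.1) with a variance trend on log2(value + 1) over all 12 libraries and 4 group means, two-sided, with Benjamini-Hochberg adjustment over 13794 genes whose value reached 1 in 3 or more libraries. Changed means an adjusted p below 0.05. Log2 changes from limma are of value + 1, so where values are near or below 1 they are smaller than those of the means. edgeR (4.0.16) and DESeq2 (1.42.0) on recovered reads, other pseudocounts, filters, scalings, a replicate block and libraries left out were alternatives. On counts simulated with changes between Control and DTP, limma recovered 195 of 195 changed genes tested, with 12 false calls among 13387 genes. With edgeR and DESeq2 the 195 were also recovered, with 11 and 32 false calls. Whether changes of the size and spread seen in the members from Control to DTP would be recovered was not tested.

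Positions and promoters came from RefSeq tables (GRCh38.p14), and 25353 genes were placed by Entrez number. Members and lists were chosen with earlier results of these data known. Named genes were the members, neighbours within 1 Mb with reads only early or only late, genes next to TRIM4 and ZNF655, the 5 genes most like each by Pearson r, and the 5 genes with the highest DTEP mean among those with reads only late, of which 1 is not reported here. Others named were chosen after their values were seen.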

Additional observations from a re-analysis of the deposited data

How the results depend on the processing

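The count of members changed from Control to DTP was 3 under the main settings and 3 to 4 with any one library left out, the 1 added call being ZKSCAN1, lower, without DTEP replicate 3. It was 4 with DESeq2, all higher, 7, 6 higher and 1 lower, with only the 6 libraries compared, and 0 with an absolute log2 change above 2. The count of members changed from DTEP to LR, 1 under the main settings, was 0 without a filter, without a variance trend, with only the 6 libraries compared, with edgeR and with an absolute log2 change above 2, and 0 to 3 with any one library left out. In those limma and edgeR settings with 0, 2 to 4 members were higher at an unadjusted p below 0.05, and DESeq2 gave 1 at the adjusted threshold. Only leaving out DTEP replicate 3 gave 3, and leaving out any other library gave 0, and the call of ZKSCAN1 was lost in 15 of 23 settings. The count of neighbours changed from DTP to DTEP, 43, was 6 (4 higher, 2 lower) with an absolute log2 change above 2, 28 (4 higher, 24 lower) within 0.5 Mb, which holds fewer genes, and 35 to 42 with any one library left out. The log2 change of ZNF394 from DTEP to LR, 0.04, ran from -0.0924 to 0.1988 with any one library left out, and was below 0 without DTEP replicate 3 (-0.0924) and without LR replicate 2 (-0.01). The number of genes with reads only in DTEP and LR, 58, was 32 with 0 reads in Control and DTP and also 32 with a value of at least 5 in DTEP and LR, 2 settings chosen after seeing the data.

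Same-numbered libraries gave r of -0.441 to 0.359 over 9 pairs for their deviations from the group means. Libraries with different numbers were not compared in this way, so whether the numbers pair them stays undecided. A replicate block left these counts at 3, 1 and 43, and took the neighbours that fell from DTEP to LR from 3 to 0. The other causes of these shifts were not tested. Depth limits what can be said of FAM200A in LR, OR2AE1 and CYP3A5, which rest on 91, 2 and 0 reads there.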

Other observations

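Several neighbours after TRIM4 peaked in the day 9 persisters, and those named were chosen after their values were seen. PILRA, an inhibitory receptor of myeloid cells, rose from 2.32 ± 0.0324 normalised read counts in Control to 16.7 ± 1.04 in DTP (SD, n = 3), and its mean was 0.765 ± 0.517 in DTEP and 0.671 ± 0.0445 in LR. Its log2 change was 2.41 from Control to DTP (SE 0.19, limma adjusted p 1.63e-06) and -3.36 from DTP to DTEP (SE 0.19, limma adjusted p 3.15e-08). GATS, listed by RefSeq as the pseudogene CASTOR3P, was at 24.0 ± 1.43, 98.9 ± 1.71, 21.8 ± 5.99 and 24.2 ± 6.15 in the order of the groups. ZCWPW1, a histone methylation reader of meiosis, rose from 12.1 ± 0.783 in Control to 37.0 ± 2.70 in DTP (log2 change 1.53, SE 0.18, limma adjusted p 4.2e-05). GIGYF1, a translational repressor that binds GRB10, rose from 111 ± 5.17 to 257 ± 24.5 (log2 change 1.20, SE 0.14, limma adjusted p 2.98e-05) and was at 64.4 ± 11.1 in DTEP.

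TFR2 and STAG3, also after TRIM4, appeared late. The transferrin receptor gene TFR2 was at 0.159 ± 0.0630, 0.321 ± 0.0784, 8.46 ± 3.15 and 3.64 ± 1.03 in Control, DTP, DTEP and LR. It rose from DTP to DTEP by 2.78 in log2(value + 1) (SE 0.24, limma adjusted p 1.05e-06), and its mean 26.4-fold. STAG3, the meiotic cohesin subunit, was at 0.0732 ± 0.0636 in DTP, 2.34 ± 1.55 in DTEP and 1.42 ± 1.09 in LR. The spans of STAG3 and GATS overlap on opposite strands, so both levels carry the uncertainty of counting given above. From DTP to DTEP the mean of STAG3 rose 32.0-fold. In log2(value + 1) the change was 1.55 (SE 0.33, limma adjusted p 0.00115).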
